A study of Mus musculus with 40 samples.

Results

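The genes that license replication origins, unwind and copy DNA, and supply its nucleotides were followed across a mouse model of glioblastoma. The list held 44 named genes, of which 43 had a probe set naming 1 gene among the 18193 genes measured; Chaf1a was not analysed here, nor was Trp53, the gene altered in the model. Their mRNA was measured on 40 Affymetrix mouse arrays, with 1 array for each sample, as log2 signals, so that a difference of 1 is a doubling. The samples were 5 normal cortices, 11 gliomas of p53nullCKO mice (hGFAP-cre+;p53floxE2-10/floxE2-10), 11 gliomas of p53R172HCKO mice (hGFAP-cre+;p53LSLR172H/floxE2-10), 11 cell lines from end-stage p53R172HCKO gliomas and 2 cell lines from early biopsies of the same genotype. Of the cortices, 3 came from hGFAP-cre+;p53floxE2-10/+ mice and 2 from hGFAP-cre-;p53floxE5-6/floxE5-6 mice, so that all animals carried at least 1 engineered p53 allele, on a mixed strain background. Cre was driven by the human GFAP promoter and therefore acted in the neural lineage. The study's general method grows its primary cell lines with EGF and bFGF, and the passage of the lines on these arrays is not given. The study describes the 11 end-stage lines as derived from, and paired with, the p53R172HCKO tumors, but the labels give neither the animals' ages nor which line belongs to which tumor. The comparison of lines with tumors therefore treated them as independent samples, and a p-value here covers the spread between arrays, which may be partly technical.

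Replication starts in 2 separate steps. In G1, the origin recognition complex (ORC), Cdc6 and Cdt1 load the Mcm2-7 ring onto DNA as an inactive helicase, which is called licensing, and geminin blocks Cdt1 once S phase begins. In S phase, the kinase Cdc7 with its activator Dbf4, together with Mcm10, Cdc45 and the GINS complex, turns the ring into a running helicase, behind which primase and the polymerases copy both strands. Most of these genes are transcribed as cells enter the cycle, under E2F transcription factors, and most cells of the adult cortex have left the cycle.

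The promoters of the list are shown first, as a description of their sequence. Of the 44 members, 36 had a promoter in the RefSeq tables of build GRCm38.p6, as 250 bases before and 50 after each start site. E2F-type letters (TTTCCCGC, TTTGGCGC, TTTCGCGC or TTTGCCGC, on either strand) stood in the promoters of 15 of these 36 genes, or 41.7%, against 2.60% of 27025 genes with a promoter and 3.81% of the 14452 that were also measured on the arrays. The letters CCAAT, a general promoter element, were in 22 of 36 members and in 41.1% of all genes, and TTTGAA, the core of an element of mitotic genes, in 7 of 36 and 20.2%. The 8 members with an E2F-type match wholly within the 180 bases before a start are printed below, 5′ to 3′ on the gene's own strand and ending at the base before the start, with the matches in capitals. They include the least changed gene of the list, Orc1, beside several of the most changed.
Orc1, chr4:108579274-108579453, plus strand: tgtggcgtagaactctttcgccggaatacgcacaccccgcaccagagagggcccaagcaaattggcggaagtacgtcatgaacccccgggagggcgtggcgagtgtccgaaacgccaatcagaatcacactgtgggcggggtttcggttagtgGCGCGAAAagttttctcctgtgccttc
Cdc6, chr11:98907971-98908150, plus strand: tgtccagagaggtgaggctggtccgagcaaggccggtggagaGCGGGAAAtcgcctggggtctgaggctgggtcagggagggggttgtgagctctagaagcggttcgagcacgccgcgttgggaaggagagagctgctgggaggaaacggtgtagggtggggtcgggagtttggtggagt
Mcm5, chr8:75109329-75109508, plus strand: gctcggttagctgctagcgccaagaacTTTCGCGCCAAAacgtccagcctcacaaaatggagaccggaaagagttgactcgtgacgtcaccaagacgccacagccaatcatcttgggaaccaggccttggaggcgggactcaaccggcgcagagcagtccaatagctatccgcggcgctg
Mcm6, chr1:128359706-128359885, minus strand: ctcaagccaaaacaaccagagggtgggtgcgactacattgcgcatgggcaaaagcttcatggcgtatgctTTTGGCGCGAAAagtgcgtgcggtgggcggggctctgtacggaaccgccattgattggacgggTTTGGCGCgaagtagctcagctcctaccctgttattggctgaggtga
Mcm7, chr5:138171884-138172063, minus strand: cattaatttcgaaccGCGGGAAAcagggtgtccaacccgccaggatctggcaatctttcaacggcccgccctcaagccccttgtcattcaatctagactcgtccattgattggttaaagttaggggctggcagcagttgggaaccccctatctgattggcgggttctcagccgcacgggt
Gins3, chr8:95633379-95633558, plus strand: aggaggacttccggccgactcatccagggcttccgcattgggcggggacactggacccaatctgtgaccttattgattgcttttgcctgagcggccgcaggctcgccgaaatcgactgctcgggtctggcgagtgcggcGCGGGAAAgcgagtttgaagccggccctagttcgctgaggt
Pola1, chrX:93632156-93632335, minus strand: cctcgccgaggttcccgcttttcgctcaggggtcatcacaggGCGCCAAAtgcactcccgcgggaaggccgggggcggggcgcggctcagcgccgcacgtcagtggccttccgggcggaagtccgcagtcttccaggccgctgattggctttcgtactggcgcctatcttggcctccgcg
Rfc3, chr5:151651209-151651388, minus strand: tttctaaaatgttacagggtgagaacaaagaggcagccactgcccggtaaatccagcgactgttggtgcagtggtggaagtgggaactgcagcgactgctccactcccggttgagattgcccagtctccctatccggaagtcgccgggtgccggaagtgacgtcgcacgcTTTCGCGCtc

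Mcm6, a subunit of the helicase ring, held 3 matches, 2 of which overlap, and Mcm5, another subunit, held 2 overlapping matches. In each overlapping pair, 1 match lies on each strand. The other 6 promoters held 1 match each in this stretch. The 7 remaining members with a match were Cdt1, Mcm3, Pold1, Pold3, Pole2, Pclaf and Lig1, whose matches began 5 bases before the start or after it. The median log2 difference between gliomas and cortex was 3.66 over the 15 members with a match and 2.46 over the 20 measured members with a promoter entry and none. The first set ran from 0.23 to 6.13 and the second from 0.54 to 6.02, so that they overlapped over nearly their whole range. A match is a description of the sequence and not a bound site.

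Nearly the whole replication machinery was higher in gliomas than in cortex. Of the 43 members, 41 rose and none fell in limma across 18193 genes at an adjusted p under 0.05, where 22.6% of all genes rose and 24.7% fell. The median log2 difference of the members was 2.71, against -0.03 over all genes. Pclaf, which binds the sliding clamp, rose most, by 6.13 ± 0.58 (SE; 70.1-fold), followed by Rrm2 and Dbf4. The 2 members that did not pass were Pold3, an accessory subunit of polymerase delta (0.54 ± 0.25, adjusted p = 0.0734), and Orc1, the largest ORC subunit (0.23 ± 0.19, adjusted p = 0.320). Every glioma lay above every cortex in 28 of the 43 members, as in 3.91% of all genes. Taken by genotype, the p53nullCKO and the p53R172HCKO gliomas each gave 41 rising members, with medians of 2.53 and 2.88, against the same 5 cortices. In bulk samples, more cells in cycle and more RNA per cell cannot be told apart.

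**Figure D1:**
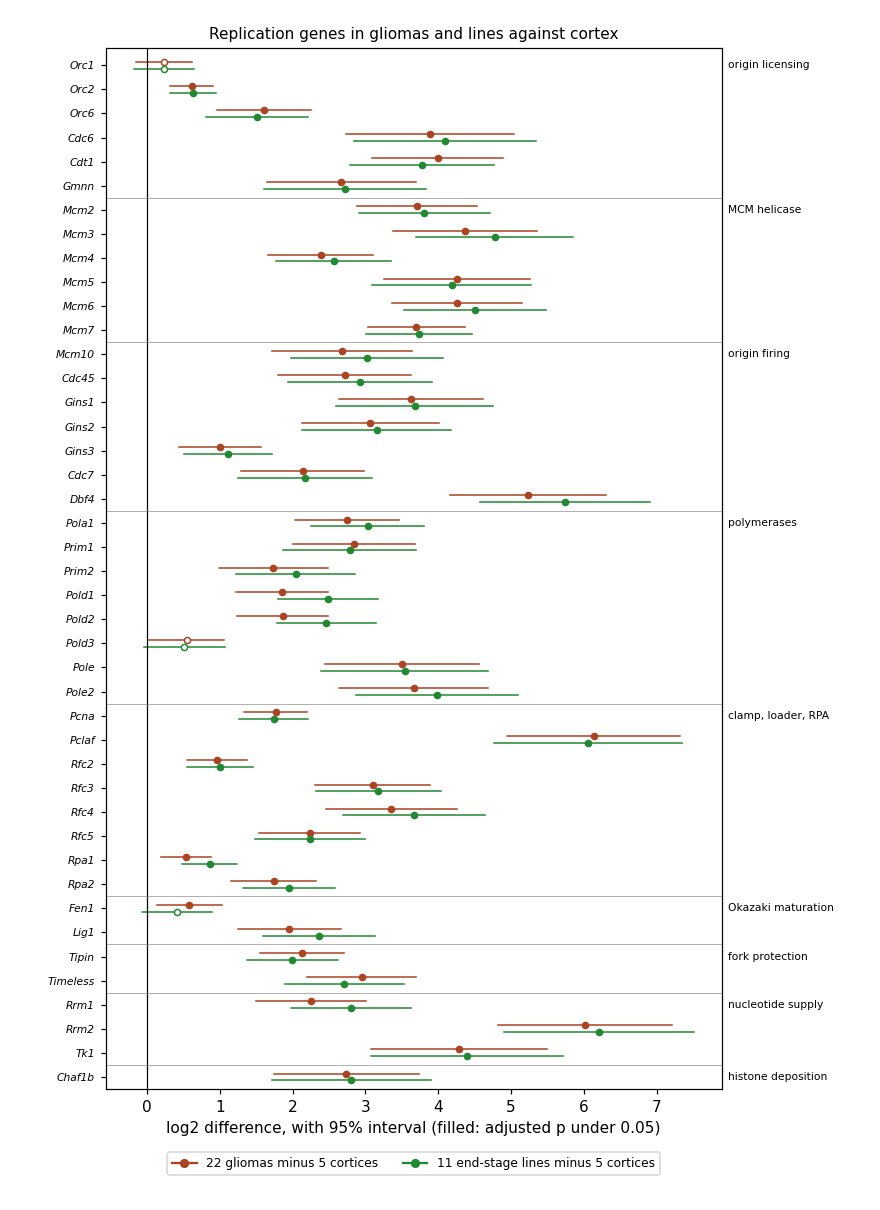
Log2 difference of each of the 43 measured members, by role, between 22 gliomas and 5 cortices (brown) and between 11 end-stage lines and 5 cortices (green), with 95% intervals from limma; filled points have an adjusted p under 0.05. All points lie above 0, from 0.23 for Orc1 to 6.13 for Pclaf in gliomas, and the open points are Orc1 and Pold3 in both comparisons and Fen1 in the lines.

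Among the licensing genes, 5 of 6 rose. Cdc6, which acts with ORC in loading the Mcm2-7 ring, had log2 signals of 2.72, 3.05, 2.96, 3.24 and 2.67 in the cortices. It ran from 3.96 to 8.51 in the gliomas, with a median of 7.06. The groups did not overlap, and the difference was 3.88 ± 0.57 (adjusted p = 8.75e-07). Cdt1, its partner in loading, had 6.29, 6.28, 6.69, 6.35 and 6.16 in the cortices and 7.34 to 12.48, median 10.42, in the gliomas, again without overlap (3.99 ± 0.45, adjusted p = 8.03e-09). Gmnn encodes geminin, the inhibitor of Cdt1, and rose as well. Its cortex signals were 7.25, 6.72, 7.01, 7.24 and 7.46, its gliomas ran from 7.10 to 11.33 with a median of 10.03, and the lowest glioma lay among the cortices (2.67 ± 0.50, adjusted p = 4.03e-05). The ORC subunits moved less: Orc6 rose by 1.61 and Orc2 by 0.61. Orc1 had 5.29, 5.64, 5.65, 5.62 and 5.45 in the cortices and 5.01 to 6.47 in the gliomas, with medians of 5.62 and 5.71, and all 5 cortices lay within the range of the gliomas.

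The Orc1 result depended on the probe set. The brighter of its 2 probe sets was used and did not pass, whereas the other rose by 1.59 ± 0.34 (adjusted p = 0.000176 over 34945 probe sets), from a cortex mean of 4.04 to a glioma mean of 5.63. For Pold3, the dimmest of 3 probe sets was the only one to pass, with 0.87 ± 0.29. Tested one by one, 77 of the members' 92 probe sets rose, against 22.5% of all probe sets, and none fell; between end-stage lines and cortex 80 rose, against 26.5%. Each of the 43 genes had at least 1 probe set that rose, and 30 had no probe set that failed to rise, among them the genes with a single one. Since 33 of the 43 had several probe sets, at least 1 rise was easier to reach for them. The shares of all genes with any or with only rising probe sets were not computed, so these 2 counts have no comparison.

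All 6 subunits of the Mcm2-7 helicase rose, with a median of 3.98. Mcm2 had 6.54, 6.32, 6.23, 5.74 and 6.00 in the cortices and 7.36 to 11.64, median 9.85, in the gliomas. Mcm5 had 5.80, 6.30, 6.32, 6.43 and 5.50 in the cortices against 7.54 to 11.71, median 10.43. Mcm6 was more uneven among the cortices, at 6.48, 5.02, 6.55, 5.11 and 5.80, against 7.86 to 11.81, median 10.13. None of the 3 overlapped between the groups, nor did the other 3 subunits. The differences were 3.71 ± 0.41 for Mcm2, 4.25 ± 0.50 for Mcm5 and 4.26 ± 0.44 for Mcm6, with adjusted p of 5.60e-09, 1.82e-08 and 1.85e-09. Mcm4 rose least of the ring, by 2.38, and Mcm3 most, by 4.37. The place of Mcm3 just above Mcm6 and Mcm5 includes cortex 33, at 4.09 against a mean of 5.45 in the other 4 cortices. Its cortex mean was also below the median of all probe sets.

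The 7 firing genes all rose, with a median of 2.71. Cdc45, which joins the ring with GINS to form the running helicase, had 4.62, 4.82, 4.85, 4.37 and 4.99 in the cortices and 5.07 to 9.15, median 7.61, in the gliomas (2.71 ± 0.45, adjusted p = 5.96e-06). Gins1, a subunit of GINS, had 4.86, 4.93, 4.79, 5.27 and 4.88 against 5.56 to 10.54, median 8.85 (3.62 ± 0.49, adjusted p = 2.39e-07). Neither overlapped between the groups. Mcm10, which acts at the step where the helicase starts, had 4.47, 4.90, 5.10, 4.95 and 4.74 against 4.66 to 9.50, median 7.64, and its lowest glioma lay among the cortices (2.67 ± 0.47, adjusted p = 1.65e-05). Cdc7, the kinase that fires origins, had 7.16, 6.97, 6.93, 5.85 and 6.64 against 6.21 to 10.53, median 8.98 (2.14 ± 0.42, adjusted p = 5.95e-05). The lowest gliomas of Cdc7 also lay among the cortices. Its activator Dbf4 rose by 5.24 ± 0.53, the third largest difference of the list, from 3.63 to 4.52 in the cortices to 5.99 to 11.20 in the gliomas. The GINS subunits were uneven, with 3.07 for Gins2 and 1.0 for Gins3, the smallest rise of the firing genes.

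Of the 8 primase and polymerase genes, 7 rose, with a median of 2.30. Pola1, the catalytic subunit of polymerase alpha, which extends the primers, had 5.87, 5.74, 5.54, 5.38 and 5.08 in the cortices and 6.24 to 9.42, median 8.47, in the gliomas (2.75 ± 0.35, adjusted p = 1.07e-07). Pole, the catalytic subunit of the leading-strand polymerase epsilon, had 4.04, 4.12, 4.16, 4.42 and 3.69 against 4.75 to 9.04, median 7.86 (3.50 ± 0.52, adjusted p = 1.13e-06). Both were separate from the cortices on every array. Prim1, the catalytic subunit of primase, had 7.57, 7.11, 7.45, 7.35 and 7.47 against 7.56 to 11.33, median 10.33, and met the cortices at its lowest glioma (2.84 ± 0.41, adjusted p = 8.75e-07). Within the lagging-strand polymerase delta, Pold1 and Pold2 rose by 1.86 each, whereas Pold3, at 7.53, 7.70, 7.74, 7.50 and 7.46 in the cortices and 7.27 to 9.83, median 7.93, in the gliomas, overlapped with the cortices.

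All 8 genes of the clamp, its loader and the single-strand binding protein RPA rose, with a median of 2.00, and they held both the largest and some of the smallest differences. Pcna, the sliding clamp, had 10.50, 10.43, 10.87, 10.62 and 10.59 in the cortices and 10.91 to 13.02, median 12.44, in the gliomas (1.77 ± 0.21, adjusted p = 4.06e-08). Its binding partner Pclaf had 5.32, 4.61, 5.04, 4.28 and 5.07 against 7.55 to 12.86, median 11.22 (adjusted p = 3.32e-10). Rfc3, a subunit of the clamp loader, had 5.75, 5.63, 5.95, 5.71 and 6.26 against 6.45 to 10.28, median 9.13 (3.10 ± 0.39, adjusted p = 7.30e-08). In all 3, every glioma lay above every cortex. Rpa2, a subunit of RPA, had 7.24, 7.40, 7.24, 7.34 and 7.37 against 7.54 to 10.68, median 9.10, without overlap (1.74 ± 0.29, adjusted p = 6.48e-06). Its partner Rpa1 rose by only 0.54 ± 0.17 (adjusted p = 0.00905), from 10.73, 10.32, 10.40, 10.25 and 10.55 to 10.35 to 11.74, with overlap.

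Fen1, the nuclease that trims Okazaki fragments, was among the least changed members, as read from the brighter of its 2 probe sets. Its signals were 9.11, 9.10, 8.92, 9.13 and 8.89 in the cortices and 8.81 to 10.77, median 9.59, in the gliomas, which overlapped (0.58 ± 0.22, adjusted p = 0.0286). This call was lost without cortex 32 (adjusted p = 0.0663), without cortex 34 (0.0688) and under cyclic loess (0.203), and Rpa1 was lost under cyclic loess too (0.285). With the 3 Cre-positive cortices alone, neither passed (0.116 for Fen1 and 0.0670 for Rpa1). Fen1 is the only member on chromosome 19, whose 609 measured genes had a median log2 difference of -0.12 between gliomas and cortex, against -0.02 for genes on other chromosomes; the part of this shift in the Fen1 value was not tested. Lig1, the ligase that seals the fragments, rose by 1.96 ± 0.35 (adjusted p = 1.69e-05), from 7.77, 7.31, 7.52, 7.59 and 7.39 to 7.24 to 10.71, median 9.66. Its lowest glioma was below the cortices.

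The partners Tipin and Timeless, which hold the polymerase and the helicase together at the fork, rose by 2.13 ± 0.28 and 2.95 ± 0.37, with adjusted p of 1.89e-07 and 7.92e-08. Tipin had 8.22, 8.14, 8.85, 8.73 and 8.56 in the cortices and 9.0 to 11.40, median 10.84, in the gliomas. Timeless had 5.87, 6.34, 5.95, 5.76 and 5.63 against 6.59 to 9.92, median 9.11. Neither overlapped. Chaf1b, a subunit of the complex that deposits histones on new DNA, had 4.69, 4.72, 5.31, 5.22 and 4.65 against 4.68 to 9.78, median 7.73, and rose by 2.73 ± 0.49 (adjusted p = 2.05e-05), with its lowest glioma among the cortices.

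The 3 genes of nucleotide supply had the highest median of any role, 4.28. Rrm2, the small subunit of ribonucleotide reductase that is made in S phase, had 4.06, 4.51, 4.21, 4.08 and 4.17 in the cortices and 6.90 to 11.88, median 10.46, in the gliomas (6.02 ± 0.59, 64.8-fold, adjusted p = 5.82e-10). Rrm1, the large subunit, had 7.44, 7.36, 7.61, 7.46 and 7.58 against 7.49 to 11.27, median 10.02, and met the cortices at its lowest glioma (2.25 ± 0.37, adjusted p = 6.29e-06). Tk1, the thymidine kinase of dividing cells, had 3.93, 3.83, 3.82, 4.38 and 4.35 against 4.77 to 10.10, median 8.56, without overlap (4.28 ± 0.60, adjusted p = 4.08e-07). In the cortices, 13 members had a mean below 5.36, the median of all probe sets, among them Cdc6, Pclaf, Rrm2, Dbf4 and Tk1. The arrays give no detection limit for such dim signals, and the size of these members' rise is less certain than its direction.

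**Figure D2:**
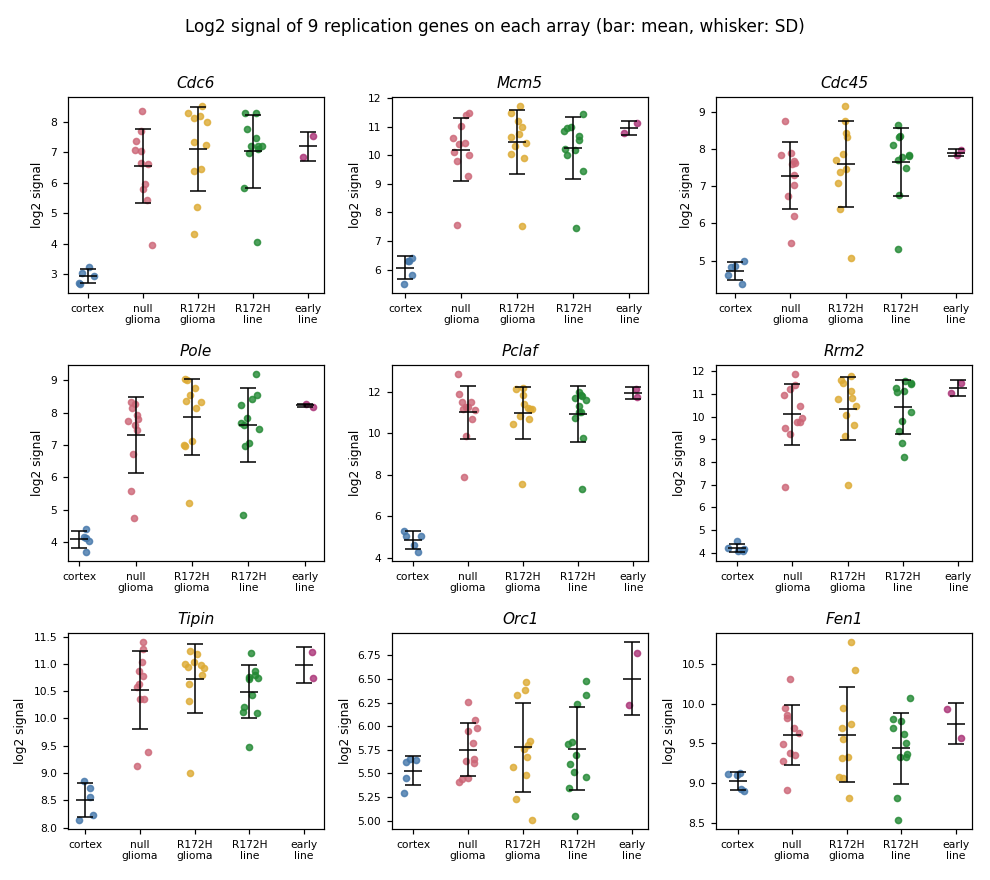
Log2 signal (vertical axis of each panel) of 9 members on every array, by group, with the mean (bar) and SD (whisker). Cdc6, Mcm5, Cdc45, Pole, Pclaf, Rrm2 and Tipin were above every cortex on all 22 glioma arrays, whereas Orc1 and Fen1 overlapped between cortices and gliomas.

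The wider pathway gave a similar picture with smaller values. Of 43 other replication genes, 34 rose and 1 fell between gliomas and cortex, with a median of 1.29. Uhrf1, which carries DNA methylation through replication, rose by 4.84, and Dscc1, a subunit of an alternative clamp loader, by 4.43. The one that fell was Rrm2b, the ribonucleotide reductase subunit that is induced by p53, by 0.72 (adjusted p = 0.000367). Of 11 genes of the E2F family and its control, 9 rose, with a median of 2.04, led by Ccna2 (5.75), a cyclin of S phase, and Rbl1 (3.73), which binds E2F factors. E2f1, chosen after its value was seen, did not pass (0.38, adjusted p = 0.412). Mitosis genes rose in 32 of 33 cases, with a median of 4.15, the most being Top2a (6.20) and Cdk1 (5.99), and DNA repair genes in 28 of 36 with a median of 0.95, of which 1 fell (Trp53bp1, by 0.43). Exo1 (3.94) and Chek1 (3.79) rose most of the repair genes. The percentages of all genes given above apply to each of these counts.

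The gliomas were not alike. The score of the list on an array, the median difference of its 43 members from the cortex mean, was 2.04 to 3.79 in 19 gliomas. It was 1.47, 0.67 and 0.58 in the other 3, p53nullCKO arrays 38 and 45 and p53R172HCKO array 58. Array 58 was the lowest glioma in 22 of the 43 members and array 45 in 16. On array 58, 34 members were above every cortex and 1 was below, where 25.9% of all genes were above and 28% below. Array 45 had 31 members above and 2 below, where 27.4% and 34.4% of all genes were, and array 38 had 37 above and none below, where 25.8% and 34.5% were. These 3 gliomas also had a mature neuron score, the median difference of 12 neuron markers from cortex, of 0.14, -0.57 and -0.61, whereas the other gliomas ran from -7.65 to -2.12. All 12 neuron markers fell between gliomas and cortex, and their summed linear signal was 58963 to 75362 in the cortices, 2551 to 46240 in the p53nullCKO and 2719 to 67036 in the p53R172HCKO gliomas. The study notes in a figure legend that histology found normal tissue in 1 primary tumor of its paired p53R172HCKO set, by a tumor number that the labels do not carry, so it was not assigned to an array here. The part of normal tissue in the values was not tested. Without the 3 arrays, 42 of 43 members rose, with a median of 2.99, and 38 lay above every cortex on all 19 remaining gliomas, as did 10.5% of all genes. The 5 that still overlapped were Orc1, Gins3, Pold3, Rpa1 and Fen1.

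**Figure D3:**
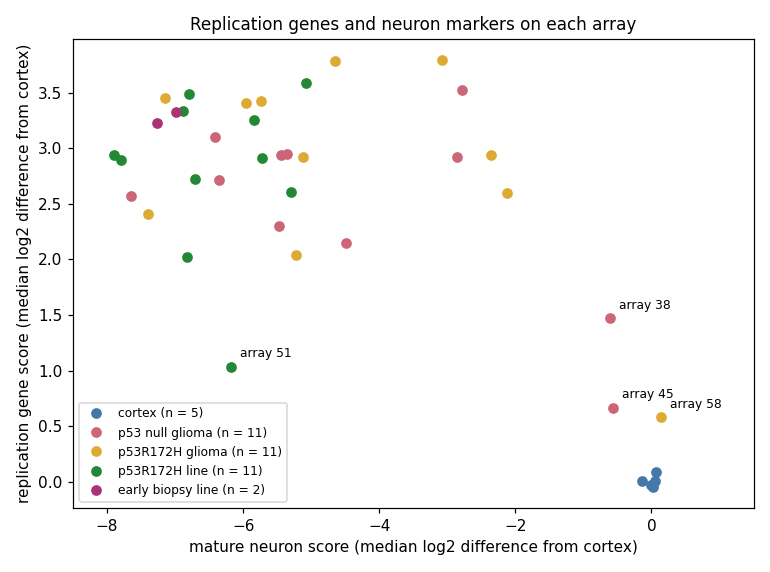
Replication gene score (vertical axis) against mature neuron score (horizontal axis) on each of the 40 arrays, both as median log2 differences from the cortex mean. Gliomas 38, 45 and 58 lie beside the 5 cortices on the neuron axis and have the 3 lowest replication scores of the gliomas; line 51 is low in replication genes with a neuron score of -6.18.

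Among the 22 gliomas, the slope of a member on the neuron score, with genotype in the model, was below 0 for all 43, and 12 passed: Mcm7, Mcm10, Cdc7, Prim1, Pold1, Pole, Rfc3, Rfc4, Lig1, Tipin, Timeless and Tk1. The steepest slopes were those of Tk1 (-0.32 per unit of the score), Cdc7 (-0.30) and Dbf4 (-0.29, not passed), and the flattest those of Fen1 (-0.01), Gins3 (-0.02) and Orc2 (-0.03). Over all genes, 6.66% fell and 10.6% rose with the score. The relation rested on few tumors. Without the 2 gliomas farthest from the median score, arrays 58 and 45, no member passed and the median slope was -0.0095 in place of -0.19; without the 3 gliomas named above it was 0.07 with none passing. Cdc7, with the steepest correlation, had Pearson's r = -0.68 (p = 0.0006) and Spearman's rho = -0.51 (p = 0.01526) over 22 gliomas by two-sided permutation, unadjusted among 43 members computed, and r = -0.53 without those 2. With Benjamini-Hochberg adjustment over the 43 members, the permutation p was 0.017 for r and 0.513 for rho. Over all members r ran from -0.68 to -0.05 with a median of -0.42, and the median was -0.04 without those 2 gliomas.

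The members varied together between tumors. Over the 22 gliomas, all 903 pairs of members had a positive correlation, with a median r of 0.82, and over the 19 gliomas with a neuron score of -1 or lower the median was 0.63, with 898 pairs above 0. Arrays share normalization and cell makeup, and correlations between pairs of other genes were not computed, so these are descriptions without a comparison. Cdc45 was closest to the other members, with a median r of 0.90, and Pold3 the least, with 0.40. The median SD of a member was 0.24 among cortices, 0.98 among gliomas and 0.69 among end-stage lines, and Orc2 had the smallest SD in each of the 3 groups, 0.05, 0.36 and 0.20.

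**Figure D4:**
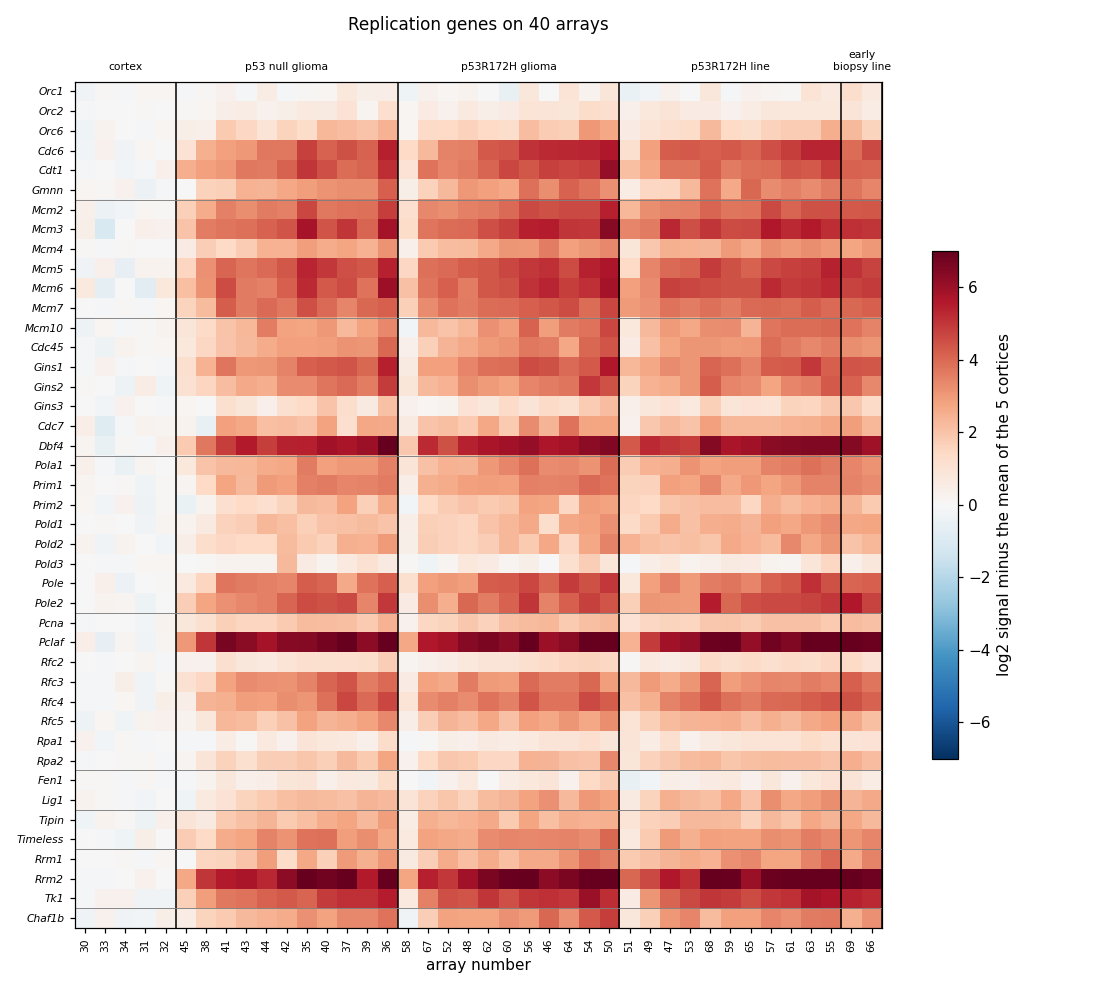
Log2 signal of the 43 members (rows, by role) on the 40 arrays (columns, ordered within each group by the replication gene score) minus the mean of the 5 cortices; red is higher and blue is lower. Gliomas 45 and 58 and line 51 are the palest columns of their groups, and Orc1, Orc2, Pold3, Rpa1 and Fen1 are pale in all groups.

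The mutant p53 allele was compared with the loss of both alleles. Between p53R172HCKO and p53nullCKO gliomas, no member passed in limma, and 1 had an unadjusted p under 0.05, where 0.033% of all genes (6 genes) passed. The members were on balance slightly higher in p53R172HCKO gliomas, 39 of 43 with a median of 0.25, against 9014 of 18193 genes. However, the members vary together, and their smallest adjusted p was 0.439. Markers of some other cell types were all lower in the same gliomas without passing. These were 10 of 10 microglia markers with a median of -0.45, 5 of 5 astrocyte markers with -0.76 and 5 of 5 oligodendrocyte markers with -0.79. The median over all genes was -0.0020. The remaining lists were mixed. Neuron markers were lower in 8 of 12 (median -0.16) and vascular markers in 5 of 8 (-0.19). Oligodendrocyte progenitor markers were higher in 3 of 5 (0.30), and the 2 blood markers were split (-0.02). The part of these cell types in the members' values was not tested. Without the 3 neuron-rich gliomas the members' median was 0.16, and Pole had 0.35 in place of 0.56. The largest difference was that of Lig1, 0.62 ± 0.30, with a 95% interval of 0.01 to 1.22, followed by Pole (0.56) and Cdc6 (0.55). The lowest values were -0.06 for Pold3, -0.05 for Rfc3 and -0.05 for Pole2. The intervals of 23 members lay within 1 on the log2 scale in either direction, and the bounds of all 43 ran from -1.06 to 1.54, so that for the other 20 a difference of more than 1 was within the interval.

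The end-stage lines were compared with the gliomas of their genotype to ask what changed in culture. Between end-stage lines and p53R172HCKO gliomas no member passed in limma, and none had an unadjusted p under 0.05, where 7.24% of all genes rose and 6.43% fell. The median log2 difference was -0.0029, 21 members being higher and 22 lower, where 10714 of 18193 genes were higher. Every one of the 43 members overlapped between the groups. Of all genes, 0.0934% were higher in each line than in each of these gliomas. The share that was lower in each line was not computed, so the share of all genes that overlapped is not given. The highest differences were 0.51 ± 0.27 for Pold2 (adjusted p = 0.208), 0.46 for Pold1 and 0.39 for Dbf4. The lowest were -0.34 for Cdt1, -0.30 for Timeless and -0.25 for Pole. These values leaned on single samples. Without the 3 neuron-rich gliomas, of which array 58 alone is of this genotype, the median was -0.20, Cdt1 was at -0.66, Timeless at -0.53, Pole at -0.51 and Dbf4 at 0.04. Without line 51, described below, Cdt1 was at -0.17, Timeless at -0.10 and Pole at 0.03. No member passed in either case. All 43 intervals held 0, and 31 lay within 1 on the log2 scale. The bounds ran from -1.15 to 1.31. Other cell types differed between the groups: all 10 microglia markers and all 8 vascular markers fell in the lines, whose summed linear microglia signal was 159 to 500 against 3896 to 22749 in the gliomas. The neuron score was -7.90 to -5.08 in the lines. The part of these cells in the comparison was not tested.

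Of the other replication genes, only Pold4, the smallest subunit of polymerase delta, rose in the lines (0.75, adjusted p = 0.0412), and of the DNA repair genes 3 did, with Mre11a (0.73) and Xrcc6 (0.67) first. No mitosis or E2F gene passed.

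**Figure D5:**
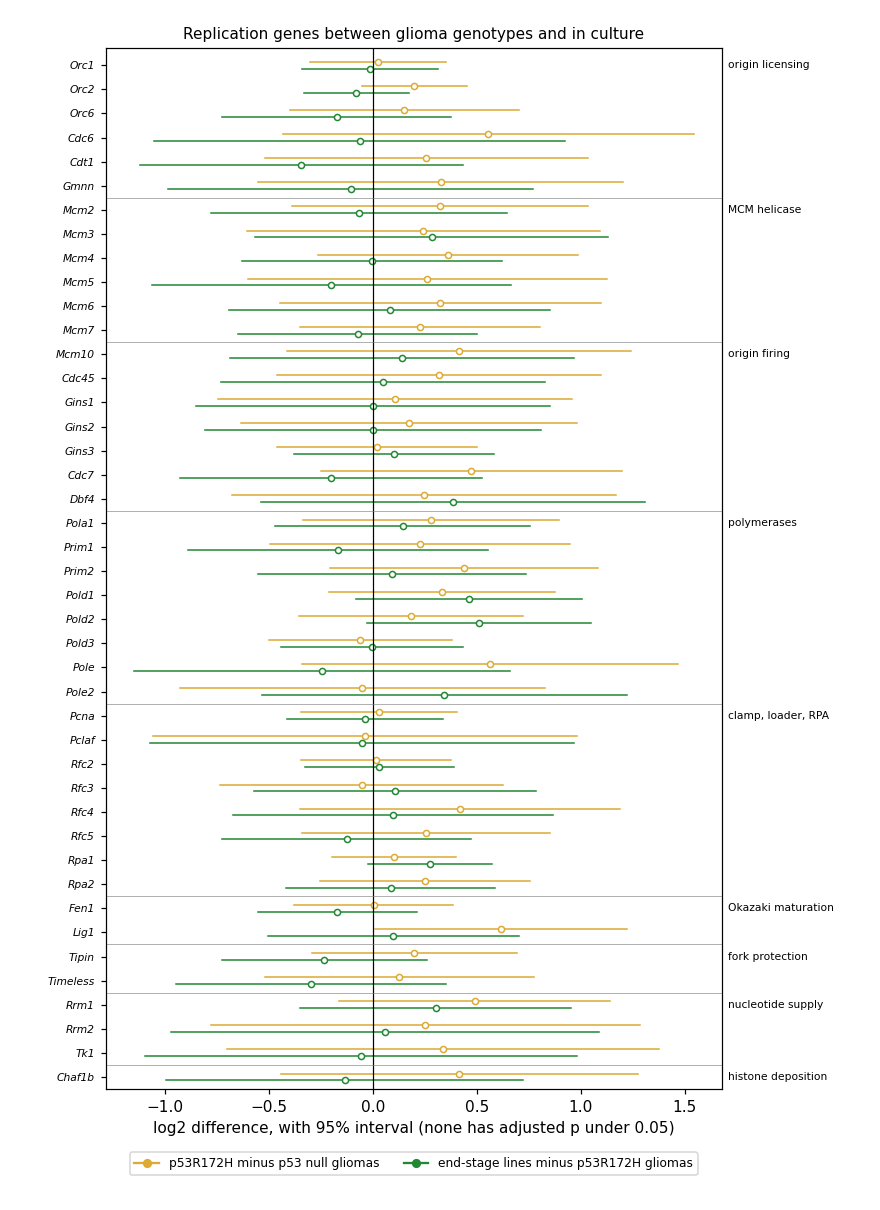
Log2 difference of each member between p53R172HCKO and p53nullCKO gliomas (yellow) and between end-stage lines and p53R172HCKO gliomas (green), with 95% intervals. All points are open, since none had an adjusted p under 0.05; Lig1 is the only yellow interval clear of 0, and the green points run from -0.34 to 0.51.

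The lines were also set against cortex, with the same 5 cortices as the gliomas. Of the 43 members 40 rose, where 25.5% of all genes rose and 24.3% fell, with a median of 2.80. Those that did not pass were Orc1 (0.23), Pold3 (0.51) and Fen1 (0.41 ± 0.24, adjusted p = 0.158). These results depended on the probe set. Tested one by one over 34945 probe sets, each of the 43 genes had at least 1 that rose, Orc1, Pold3 and Fen1 included. That count again has no comparison over all genes. The largest differences were those of Rrm2 (6.20), Pclaf (6.06) and Dbf4 (5.74). In 38 members every line lay above every cortex, as in 16.1% of all genes, and the 5 that overlapped were Orc1, Cdc7, Pold3, Rfc2 and Fen1. Rfc3, for example, ran from 8.15 to 9.92 in the lines, with a median of 9.08, against 6.26 in the highest cortex.

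One line stood apart. Line 51 had a list score of 1.04, while the other 10 lines ran from 2.02 to 3.59, and it was the lowest line in 39 of 43 members. Its neuron score of -6.18 was within the range of the other lines. Pclaf was at 7.30 in it and had a median of 11.33 over the 11 lines, and Tk1 was at 4.65 against a median of 8.95. Of its members, 38 were above every cortex and 2 below, where 39.8% of all genes were above and 32.7% below. Without line 51, no member passed between lines and p53R172HCKO gliomas, and the median difference moved to 0.16.

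The lines from early biopsies, of which there were 2, gave no member that passed against the end-stage lines in limma, where 0 of all genes passed (0%) and 515 had an unadjusted p under 0.05. Of the members, 42 of 43 were higher in the early lines, with a median of 0.40, against 7994 of 18193 genes and a median of -0.04. The members vary together, with a median pair r of 0.81 over the end-stage lines, so they are not 42 separate results. Orc1 alone had an unadjusted p under 0.05, at 6.23 and 6.78 against 5.05 to 6.48 (0.74 ± 0.29). For 33 members both early lines lay within the range of the end-stage lines. The share of all genes for which this held was not computed, so the count is only a description. Pole2, a subunit of polymerase epsilon, had the largest difference, at 9.11 and 10.01 against 6.04 to 9.86 (1.19 ± 0.78), followed by Pclaf (1.02) and Tk1 (0.92). These values also leaned on line 51 among the end-stage lines: without it Pole2 had 0.95, Pclaf 0.66 and Tk1 0.54, and the median of the list was 0.29 in place of 0.40. The lowest were Pold2 (-0.30), Chaf1b (0.01) and Pold3 (0.06). With 2 early lines the intervals were wide: 5 of 43 lay within 1 on the log2 scale, and the bounds ran from -1.62 to 2.86.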

How the data were processed

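The authors deposited log2 signals of 40 Affymetrix mouse arrays, which they had corrected for background, quantile-normalized and summarised per probe set by robust multi-array average; software versions are not given in the sources used here. Base 2 was inferred from the range (2.00 to 14.47; array medians 5.24 to 5.47). Of 45101 probe sets, 64 controls were left out, and 34945 named 1 gene. A gene took its brightest probe set over all arrays, which gave 18193 genes. All 40 arrays entered 1 model with 5 groups (limma 3.58.1, R 4.3.3: lmFit, contrasts.fit, eBayes), with Benjamini-Hochberg adjustment and a threshold of 0.05; intervals are 95%. The slope on the neuron score used the 22 gliomas with genotype. Permutations numbered 100000 (Python 3.11.15, NumPy 2.4.6). The model was tested on simulated data with independent genes and an equal SD in every group. The members differ in both respects, so this does not check their calls. After quantile normalization a shift shared by most genes cannot be seen. Precision is set by how many arrays a group has, fewest in the early lines (2). The members, gene lists and tests were chosen with earlier results of these data known. The text names 1 or 2 members or more of each role, members that did not pass, and the 3 largest and 3 smallest differences of each comparison. Alternatives were other probe sets, filters, normalization, weights, moderation, thresholds and samples left out.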

Additional observations from a re-analysis of the deposited data

Results flagged for a closer look

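Among the 43 members tested, 1 had a cortex that stood far from the other 4, where chance gives about 1 in 20. Mcm3, a subunit of the Mcm2-7 helicase, was at 4.09 in cortex 33, against a mean of 5.45 in the other 4 cortices, and the gap to the next cortex was 0.758 of the whole range.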

How the results depend on the processing

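Between gliomas and cortex, 39 to 43 members rose under every alternative run, and none fell; each cortex left out in turn gave 40 or 41. Between lines and cortex 39 to 42 rose, and with each cortex left out 40. No member passed between genotypes, between lines and gliomas, or between early and end-stage lines under any alternative run. Each early line left out in turn also gave 0, but the remaining one is then assumed to vary like the other groups, and this count says nothing about stability. With the neuron score, 20 members fell with the mean of all probe sets, 2 at an adjusted p under 0.01, 0 without the 2 gliomas farthest from the median score and 0 without the 3 gliomas above -1, the last chosen after seeing the data, as were leaving out line 51 and testing probe sets one by one. Pold3 between gliomas and cortex passed with the mean of all probe sets (adjusted p = 0.0306), with array weights (0.0125) and without those 3 gliomas (0.0399), and Orc1 with the mean of all probe sets (0.00196). Reversed values, all far from the threshold, were Pole2 between genotypes (0.0282 with the mean of all probe sets), Pole between lines and gliomas (0.0341 without line 51), and between early and end-stage lines Chaf1b (-0.0498 with array weights, -0.34 without early line 66, -0.19 without line 51) and Pold3 (-0.17 without early line 66, -0.0061 without line 51). Without early line 69 these kept their direction, Chaf1b at 0.37 and Pold3 at 0.28. The cause was not tested. No paired analysis was possible because the labels do not say which line came from which tumor, although the study describes them as paired. With 5 cortices and 2 early lines, small differences were beyond the precision of these arrays.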
